A study of Mus musculus with 8 samples.

Results

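The genes Blnk, Cd22, Irf4, Ltb and Blk are described here in the lung of 14-week-old male mice transgenic for fra-2, the product of the Fosl2 gene, which pairs with Jun proteins to form the transcription factor AP-1. Each gene has 1 probe that could be named, which makes 5 of the 20794 probes of the arrays and 5 of the 8741 named genes. Another probe annotated for Ltb could not be named and was not used. The 5 genes were picked by name from earlier results of these same arrays, in which 4 of them were called higher and Blk lower. Their means against the control, and whether these pass a threshold, are therefore description and no evidence of a change.

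RNA from whole lung of 4 fra-2 transgenic mice was hybridised on 2-colour arrays against 1 pool made from the lungs of 4 wild type males, also 14 weeks old, and both groups were on a C57BL6 x CBA background. Every transgenic mouse had 2 arrays, one with its RNA in Cy5 and one with it in Cy3, which makes 8 arrays. The labels do not name the promoter of the transgene, and mice of 6 and 10 weeks are not analysed here. A value is the deposited log2 ratio of an array, so that 1 means a doubling; the ratios are read as transgenic over pool, a direction that is likely only, because it rests on the order of the channels in the labels.

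A B cell senses antigen through its surface immunoglobulin, whose partner chains pass the signal to kinases of the Src and Syk families. Syk then phosphorylates the adaptor that Blnk encodes, and this adaptor gathers Btk and phospholipase C gamma 2 on one scaffold. Cd22 is a sialic acid binding receptor that damps this signal by recruiting a phosphatase, Irf4 is a transcription factor of activated B cells and plasma cells, and Ltb gives lymphotoxin beta, a TNF family ligand that organises lymphoid tissue. Outside the B lineage, Blnk is also found in macrophages, Irf4 in T cells, dendritic cells and alternatively activated macrophages, and Ltb in T cells.

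The arrays gave 20585 to 20729 usable ratios each, with medians between -0.09 and 0.01. The mouse 4 array with its RNA in Cy3 stood apart, with an SD over probes of 0.768 against 0.413 to 0.457 on the other 7 arrays, and correlated at 0.389 with the other array of that mouse, against 0.587 to 0.685 in mice 1 to 3. Ratios give no expression level, so neither the presence of lung markers nor that of B cells could be read from them. In whole tissue, more cells of a type and more RNA per cell cannot be told apart.

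The promoters of the 4 higher genes are shown because these genes were picked as higher in the same tissue. Each is the 250 bases before and the 50 bases after the gene start, from RefSeq on GRCm38.p6, written 5' to 3' on the strand of the gene, and Blk was not in the table. Capitals mark matches on either strand to 7 motifs: the octamer ATGCAAAT, the ETS-IRF composite element, the interferon-stimulated response element core, the AP-1 site TGANTCA, the NF-kappa-B core, the PU.1 core AGGAAGT and the E2A E-box CAGGTG.
Blnk (chr19:40994172-40994471, minus strand): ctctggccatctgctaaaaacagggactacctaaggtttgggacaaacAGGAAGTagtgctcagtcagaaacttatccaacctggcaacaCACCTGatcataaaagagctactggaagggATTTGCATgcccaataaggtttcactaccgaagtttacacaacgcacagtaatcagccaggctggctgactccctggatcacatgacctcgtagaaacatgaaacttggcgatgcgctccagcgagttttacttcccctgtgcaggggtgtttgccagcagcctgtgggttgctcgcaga
Cd22 (chr7:30878979-30879278, minus strand): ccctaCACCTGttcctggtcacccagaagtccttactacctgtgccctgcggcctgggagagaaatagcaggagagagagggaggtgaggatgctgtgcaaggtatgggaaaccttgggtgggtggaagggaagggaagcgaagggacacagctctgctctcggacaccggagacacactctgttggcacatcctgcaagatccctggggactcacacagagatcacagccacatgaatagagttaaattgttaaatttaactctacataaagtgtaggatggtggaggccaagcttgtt
Irf4 (chr13:30748983-30749282, plus strand): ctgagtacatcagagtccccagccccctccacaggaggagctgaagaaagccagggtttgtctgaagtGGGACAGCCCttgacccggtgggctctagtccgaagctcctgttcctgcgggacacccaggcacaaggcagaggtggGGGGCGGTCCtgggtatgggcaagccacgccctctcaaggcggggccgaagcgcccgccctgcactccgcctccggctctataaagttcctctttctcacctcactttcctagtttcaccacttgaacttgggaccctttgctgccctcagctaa
Ltb (chr17:35194257-35194556, plus strand): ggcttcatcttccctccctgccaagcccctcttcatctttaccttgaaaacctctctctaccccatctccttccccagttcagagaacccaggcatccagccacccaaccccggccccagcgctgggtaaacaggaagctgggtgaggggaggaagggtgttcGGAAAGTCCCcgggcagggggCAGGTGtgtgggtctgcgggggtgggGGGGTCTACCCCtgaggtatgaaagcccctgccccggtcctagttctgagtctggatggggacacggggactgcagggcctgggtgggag

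The Blnk window held 3 matches, an octamer (ATTTGCAT, 130 bases before the start), a PU.1 core and an E-box. Of 32851 promoters of the same length, 1.74% held the octamer, 9.35% the PU.1 core and 20.2% the E-box. Cd22 held 1 E-box, and Ltb held an E-box and NF-kappa-B cores, some of which overlap each other. Irf4 held NF-kappa-B cores only, and 50.8% of all promoters hold that short motif. The AP-1 letters, present in 7.81% of promoters, were not in these 4 windows, and neither were the composite element (2.72%) or the interferon response core (3.44%). A match describes letters and not a bound site.

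Blnk and Cd22 stood about 2-fold higher in transgenic lung, Irf4 and Ltb about 1.66-fold higher, and Blk slightly lower. All 5 passed the threshold of the fit over all probes (limma, adjusted p under 0.05), beside 25.7% of the 20621 probes tested (11.1% higher and 14.6% lower), but they were picked from such calls and nothing is read from that count. Alternatives for these genes were read from the same fit over gene values, where Blk and Irf4 also passed in the main setting. There Blk was no longer past the threshold with the mouse as a random block or without any 1 mouse. The same held on the Cy3 arrays alone and without the mouse 4 array in Cy3. Irf4 was no longer past it on the Cy3 arrays alone or without mouse 4. Were the ratios to run the other way, Blnk would stand at 0.49 of the pool, Cd22 at 0.501, Irf4 and Ltb at 0.602 and Blk at 1.22, and higher and lower would change places throughout. The median ratio was 0.01 over all tested probes and 0.73 over the 5 genes.

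**Figure D1:**
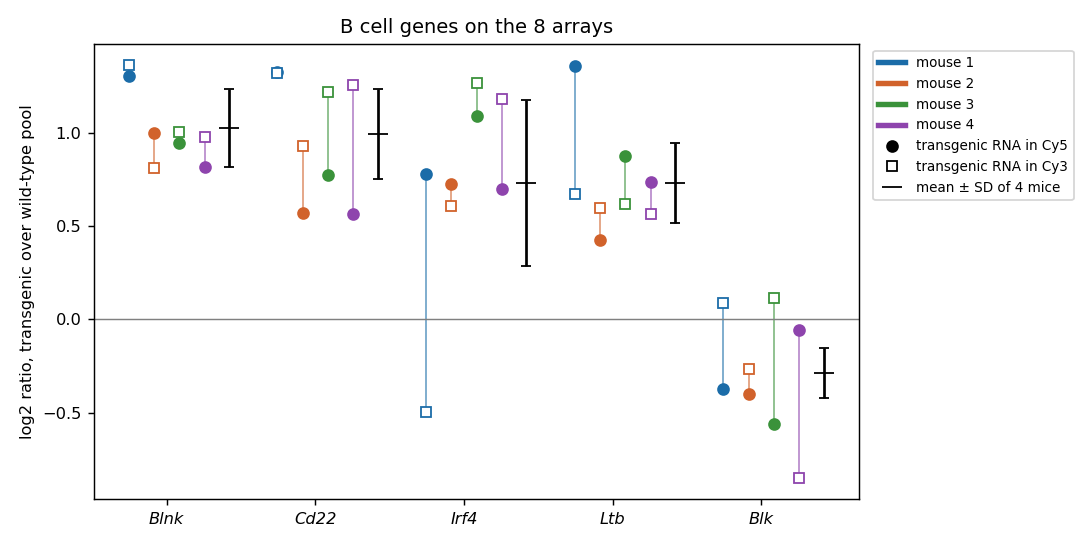
Log2 ratio (vertical axis, transgenic over wild-type pool) of the 5 genes on each of the 8 arrays. Colours mark mice 1 to 4, filled circles and open squares the 2 dye orientations, joined within a mouse, and black bars the mean ± SD of the 4 mouse means; Blnk, Cd22 and Ltb lie above 0 on all 8 arrays, Irf4 on 7, and Blk straddles 0.

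Blnk, the adaptor that carries the signal of the B cell receptor to its enzymes, had log2 ratios of 1.31 and 1.37 in mouse 1 (the Cy5 array first, as in the other values that follow), 0.997 and 0.81 in mouse 2, 0.95 and 1.01 in mouse 3, and 0.82 and 0.98 in mouse 4. All 8 arrays were above 0, a property of 9.81% of the 20392 probes measured on every array. Both arrays of mouse 1 were above every array of the other mice. The mean over mice was 1.03 ± 0.21 (SD, n = 4), or 2.04-fold, and 0.689% of tested probes had a mean at least as high. Blnk was also the steadiest of the 5 within a mouse, since its paired arrays differed by at most 0.19.

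Cd22, the inhibitory co-receptor, had log2 ratios of 1.33 and 1.32 in mouse 1, 0.57 and 0.93 in mouse 2, 0.78 and 1.22 in mouse 3, and 0.57 and 1.26 in mouse 4. Mouse 1 was again the highest, and the other mice gave a higher ratio on the Cy3 array than on the Cy5 array. The mean was 0.996 ± 0.24 (SD, n = 4 mice), or 1.99-fold, and 0.723% of tested probes stood at or above it. Without the mouse 4 array in Cy3 the mean was 0.91.

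Irf4, the transcription factor of activated B cells and plasma cells, was the least even of the 5 between mice. Its log2 ratios were 0.78 and -0.50 in mouse 1, 0.73 and 0.61 in mouse 2, 1.09 and 1.27 in mouse 3, and 0.70 and 1.18 in mouse 4. One array, that of mouse 1 in Cy3, lay below 0, and the pair of mouse 1 differed by 1.27, the widest gap of the 5 genes. The mean was 0.73 ± 0.45 (SD, n = 4 mice), or 1.66-fold, with 1.89% of tested probes at or above it, and it was 0.93 without mouse 1.

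Ltb, the membrane-bound partner of lymphotoxin alpha, had log2 ratios of 1.36 and 0.67 in mouse 1, 0.43 and 0.60 in mouse 2, 0.87 and 0.62 in mouse 3, and 0.74 and 0.57 in mouse 4. The Cy5 array of mouse 1 stood above the other 7, which lay between 0.43 and 0.87. The mean was 0.73 ± 0.21 (SD, n = 4 mice), or 1.66-fold, and 1.90% of tested probes stood at or above it.

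Blk, a Src family kinase that acts early in the same cascade, had log2 ratios of -0.37 and 0.09 in mouse 1, -0.40 and -0.26 in mouse 2, -0.56 and 0.11 in mouse 3, and -0.05 and -0.85 in mouse 4. The mean was below 0 in 4 of 4 mice, but 2 of 8 arrays were above 0. It was -0.29 ± 0.13 (SD, n = 4), or 0.82 of the pool, and 17.2% of tested probes had a mean as low or lower. The mouse 4 array in Cy3 gave the lowest value, and without it the mean was -0.19. The agreement of the mouse means is closer than that of the arrays: the 2 arrays of a mouse differed by up to 0.80.

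In order of their means the genes ran Blnk, Cd22, Irf4, Ltb and Blk. Blnk and Cd22 differed by less than the SD between mice, and so did Irf4 and Ltb. The step between Cd22 and Irf4 was within the SD of Irf4 and just over that of Cd22.

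**Figure D2:**
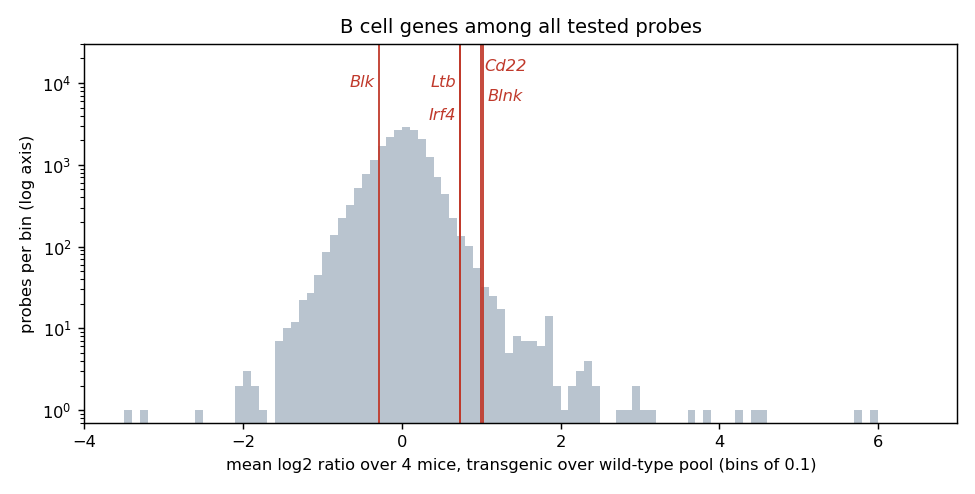
Number of probes (vertical axis, log scale) by mean log2 ratio over 4 mice (horizontal axis, bins of 0.1, transgenic over wild-type pool). Red lines mark the 5 genes: the 4 higher ones lie in the upper tail, where 0.689% to 1.90% of the 20621 tested probes stand at or above them, and Blk at -0.29 lies within the body of the distribution.

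Differences between mice do not use the mean that picked the genes, so they were tested. By a limma F test over the 4 mice with the dye as covariate, 0 of the 5 genes passed (adjusted p = 0.365 for Blnk, 0.395 for Cd22, 0.428 for Irf4, 0.497 for Ltb and 0.884 for Blk). Over all probes 201 of 20392, or 0.986%, passed, and 3263 had an unadjusted p under 0.05. With 2 arrays per mouse, the lack of a pass does not show that the mice were alike. The mice nevertheless ran in a common order in part of the values: mouse 1 was highest for Blnk (1.34), Cd22 (1.33) and Ltb (1.02), against 0.90, 0.75 and 0.51 in mouse 2. Irf4 ran otherwise, with 0.14 in mouse 1, 0.67 in mouse 2, 1.18 in mouse 3 and 0.94 in mouse 4.

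The dye orientation was tested in the same way, on the difference between the 2 arrays of a mouse. The Cy5 array minus the Cy3 array averaged -0.37 for Cd22 (limma, adjusted p = 0.188, unadjusted p = 0.0347), 0.24 for Ltb (adjusted p = 0.363), 0.18 for Irf4 (adjusted p = 0.694), -0.12 for Blk (adjusted p = 0.771) and -0.02 for Blnk (adjusted p = 0.900). None of the 5 passed, and neither did any other probe except 1, which is 0.0049% of those tested, while 4912 had an unadjusted p under 0.05. Cd22 averaged 0.81 on the Cy5 arrays and 1.18 on the Cy3 arrays, and Blnk 1.02 and 1.04; the dye differences of the 2 genes were not tested against each other.

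To place the 5 genes in their pathways, 8 lists of related genes were counted at the gene level, where 31.9% of 8692 genes passed the threshold, 13.5% higher and 18.4% lower. Of 74 measured list genes other than the 5, 22 rose, 6 fell and 46 did not pass, with a median of 0.13 beside -0.01 over all genes. The lists were chosen with earlier results of these data known. These counts are therefore description, and they were not tested against the shares over all genes. When the 4 Cy3 arrays were used by themselves the count of rises was 8, and it was 10 without mouse 1, 14 without mouse 2 and 11 without mouse 3. All adjusted p-values below are from limma over all genes.

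**Figure D3:**
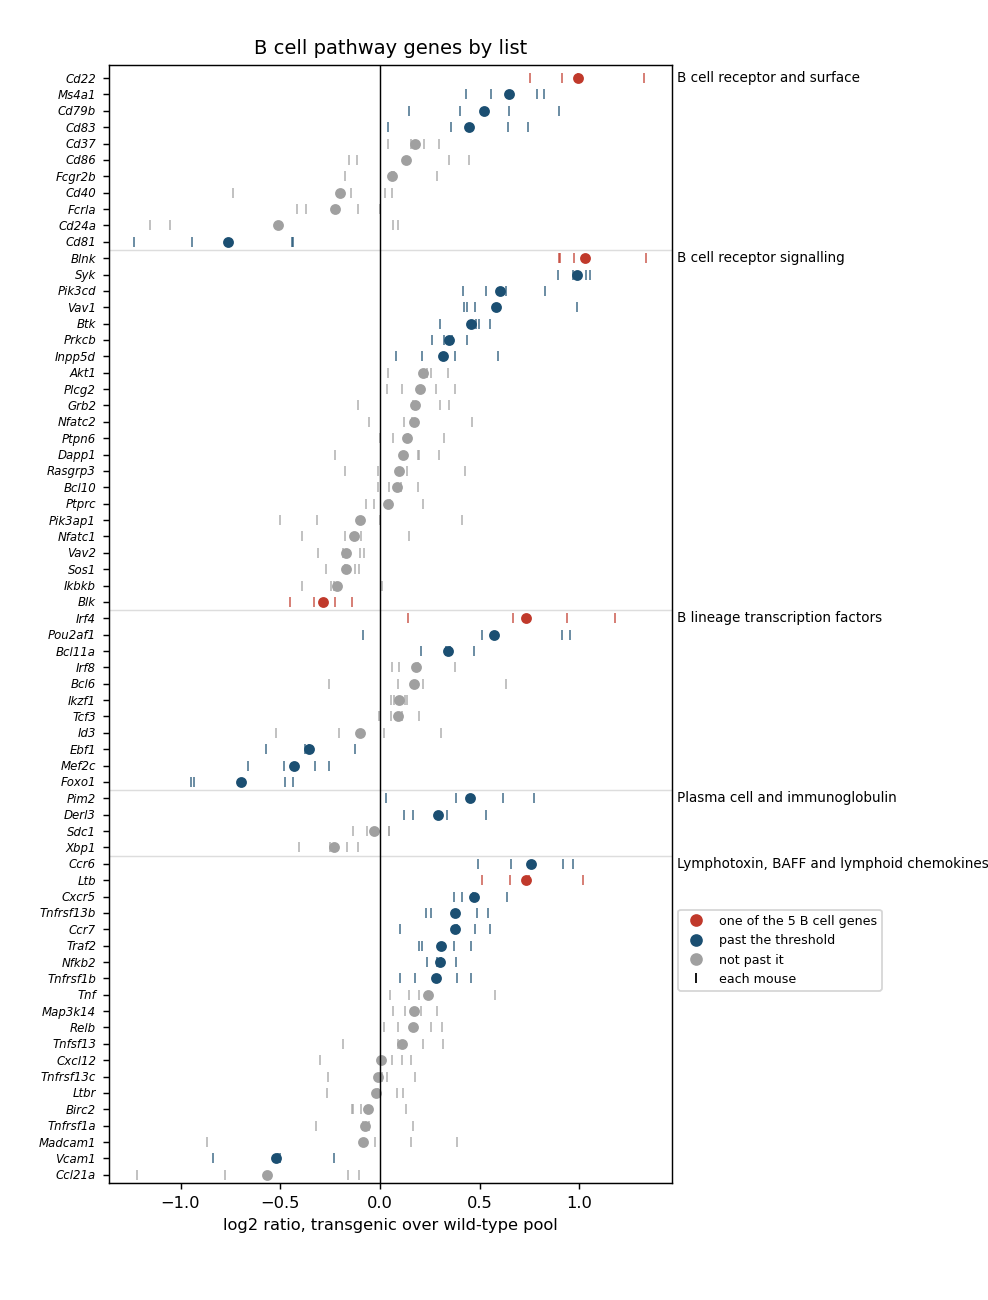
Log2 ratio (horizontal axis, transgenic over wild-type pool) of measured genes in 5 of the lists, with ticks for mice 1 to 4 and a dot for their mean. Red dots are Blnk, Cd22, Irf4, Ltb and Blk, blue dots other genes past the threshold and grey dots genes not past it; most blue dots lie right of 0, with Cd81, Foxo1, Mef2c, Ebf1 and Vcam1 to the left.

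Of the B cell receptor and surface genes, 10 were measured beside Cd22, and 3 rose and 1 fell (median 0.10, but -0.03 on the Cy3 arrays alone, 0.19 on the Cy5 arrays alone and 0.005 without mouse 3). Ms4a1, which encodes the B cell antigen CD20, had values of 0.79, 0.56, 0.82 and 0.43 in mice 1 to 4 and rose by 0.65 ± 0.19 (adjusted p = 0.00335). Cd79b, a signalling chain of the B cell receptor, rose by 0.52 ± 0.32 (adjusted p = 0.0186), from values of 0.90, 0.40, 0.65 and 0.14. Cd83, a marker of activated B cells and dendritic cells, rose by 0.45 ± 0.32 (adjusted p = 0.0301). Cd81, a tetraspanin gene that many cell types express, fell by 0.76 ± 0.39 (adjusted p = 0.00858). Cd79a, Pax5, Ighm and Igkc are not among the genes named on these arrays. Of the genes chosen to mark B cell identity, only Ms4a1 and Cd79b were measured. The 6 list genes that did not pass went both ways. Fcrla (-0.23), Cd40 (-0.20) and Cd24a (-0.51) had means below 0, and Cd37 (0.18), Cd86 (0.13) and Fcgr2b (0.06) above it. The Cd79b call was lost on the Cy3 arrays alone (adjusted p = 0.181, the highest of its 14 alternatives) and without mouse 1 or mouse 3, and that of Cd83 in the same cases and without mouse 4.

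Of the B cell receptor signalling genes, 20 were measured beside Blnk and Blk, and 6 rose and 0 fell (median 0.15, and 0.05 on the Cy3 arrays alone). Syk, the kinase that phosphorylates the Blnk adaptor, rose by 0.99 ± 0.07 (adjusted p = 6.07e-04), with 0.97, 0.90, 1.05 and 1.03 in mice 1 to 4. Btk, the kinase that docks on it, rose by 0.46 ± 0.11 (adjusted p = 0.00553). Pik3cd, a catalytic subunit of phosphoinositide 3-kinase, rose by 0.60 ± 0.18 (adjusted p = 0.0039), and the exchange factor gene Vav1 by 0.58 ± 0.27 (adjusted p = 0.00909). The protein kinase C gene Prkcb rose by 0.35 ± 0.07 (adjusted p = 0.0117), and Inpp5d, which encodes the inhibitory lipid phosphatase SHIP1, by 0.32 ± 0.22 (adjusted p = 0.0453). Plcg2, the phospholipase on the same scaffold, had a mean of 0.20 ± 0.15 and did not pass (adjusted p = 0.107). Many of these genes are used throughout the blood cell lineages. All 6 rises were larger on the Cy5 arrays than on the Cy3 arrays, for Syk 1.21 against 0.76. The SD over mice leaves this gap out, because the arrays of a mouse were averaged. On the Cy3 arrays alone the calls of Btk, Pik3cd, Vav1, Prkcb and Inpp5d were lost and that of Syk was kept, and Inpp5d was also lost without mouse 1, 2 or 3 and with placeholder values kept, which are ratios beyond 10 in size that were otherwise set to missing.

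Among kinases of the Src family, the relatives of Blk, 2 others were measured and neither passed. Fgr had a mean of 0.27 ± 0.22 (adjusted p = 0.0754) and Src one of -0.07 ± 0.12 (adjusted p = 0.501).

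Of the B lineage transcription factor genes, 10 were measured beside Irf4, and 2 rose and 3 fell (median 0.09, but -0.08 on the Cy3 arrays alone). Pou2af1, the B cell coactivator that works with octamer factors, rose by 0.57 ± 0.48 (adjusted p = 0.0385), with 0.96, -0.08, 0.91 and 0.51 in mice 1 to 4, so mouse 2 did not share it. Bcl11a rose by 0.34 ± 0.11 (adjusted p = 0.0151), over 2 probes at 0.13 and 0.55. Foxo1 fell by 0.70 ± 0.28 (adjusted p = 0.00516), Mef2c by 0.43 ± 0.18 (adjusted p = 0.0118) and Ebf1 by 0.36 ± 0.18 (adjusted p = 0.0228), the last over 3 probes that ranged from -0.68 to 0.20. The 2 probes of Mef2c disagreed in size, at -0.83 and -0.03. Foxo1, Mef2c and Ebf1 are made outside the B lineage too. Which cells carried the rises or the falls of this list was not tested. The Pou2af1 call was lost without mouse 1, 3 or 4, that of Ebf1 without mouse 1, 2 or 4 and that of Bcl11a without mouse 1 or 3, and on the Cy3 arrays alone those of Pou2af1, Ebf1 and Mef2c were lost. Pou2af1 was also lost with placeholder values kept.

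Within the IRF family, 7 relatives of Irf4 were measured. Irf1, an interferon-inducible factor, rose by 0.66 ± 0.34 (adjusted p = 0.00936), with 1.12 in mouse 1 and 0.41, 0.72 and 0.41 in mice 2 to 4. Irf3 fell by 0.46 ± 0.31 (adjusted p = 0.0262), a call lost without mouse 1, 2 or 4 and on the Cy5 arrays alone. Irf8, the closest relative of Irf4 in sequence, had a mean of 0.18 ± 0.14 and did not pass (adjusted p = 0.13). Mouse 1 was the highest mouse for Irf1 and the lowest for Irf4.

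Only 4 of 19 listed plasma cell and immunoglobulin genes were measured, and 2 rose. Pim2, a survival kinase of plasma cells and lymphocytes, rose by 0.45 ± 0.32 (adjusted p = 0.0302), with 0.03, 0.38, 0.62 and 0.78 in mice 1 to 4. Derl3, a gene of protein disposal in the endoplasmic reticulum, rose by 0.29 ± 0.19 (adjusted p = 0.0461). Xbp1, the transcription factor of secretory cells, had a mean of -0.23 ± 0.13 (adjusted p = 0.0618), and Sdc1, the plasma cell surface gene that epithelium also makes, one of -0.03 ± 0.09 (adjusted p = 0.799). The Derl3 call was lost without any 1 of the 4 mice, on the Cy3 arrays alone and with placeholder values kept. Pim2 averaged 0.79 on the Cy3 arrays and 0.12 on the Cy5 arrays, where its call was lost (adjusted p = 0.284, the highest of its 14 alternatives). It was also lost with the mouse as a random block (adjusted p = 0.0565), without mouse 2, 3 or 4, and without the mouse 4 array in Cy3, where the mean was 0.29 (adjusted p = 0.0775).

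Around Ltb, 19 genes of lymphotoxin and BAFF signalling and of lymphoid chemokines were measured, and 7 rose and 1 fell (median 0.17). The chemokine receptor genes Ccr6 (0.76 ± 0.22, adjusted p = 0.00269), Cxcr5 (0.47 ± 0.12, adjusted p = 0.00529) and Ccr7 (0.38 ± 0.20, adjusted p = 0.0206) rose. Ccr6 and Cxcr5 guide B cells and some T cells, and Ccr7 guides lymphocytes and dendritic cells to lymph nodes. Tnfrsf13b, which encodes the BAFF and APRIL receptor TACI, rose by 0.38 ± 0.16 (adjusted p = 0.0152), while the BAFF receptor gene Tnfrsf13c had a mean of -0.01 ± 0.18 (adjusted p = 0.952). Of genes downstream of TNF family receptors, Traf2 (0.31 ± 0.13, adjusted p = 0.024) and Nfkb2 (0.30 ± 0.06, adjusted p = 0.0173) rose, Nfkb2 over 2 probes at 0.06 and 0.55.

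The receptor of lymphotoxin, Ltbr, which stromal cells and macrophages carry, had a mean of -0.02 ± 0.17 (adjusted p = 0.898). Vcam1, an adhesion gene of activated endothelium and stroma, fell by 0.52 ± 0.25 (adjusted p = 0.0108). The lymphoid chemokine gene Ccl21a had -0.16, -0.78, -0.10 and -1.22 in mice 1 to 4, with a mean of -0.57 ± 0.53 that did not pass (adjusted p = 0.0526). The Ccr7 call was lost without mouse 1, 2 or 3, that of Nfkb2 in the same cases, that of Traf2 without mouse 1 or 2 and that of Tnfrsf13b without mouse 1 or 3. On the Cy3 arrays alone the calls of Ccr7, Traf2, Tnfrsf13b and Cxcr5 were lost, and on the Cy5 arrays alone that of Nfkb2.

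Beside Cd22, 2 genes of its Siglec family were measured. Mag, known as the myelin-associated member, rose by 0.37 ± 0.14 (adjusted p = 0.0142), and Siglec1, the sialoadhesin gene of macrophages, had a mean of 0.19 ± 0.05 (adjusted p = 0.0799). Siae, whose enzyme removes acetyl groups from sialic acid and so affects the ligands of the Cd22 receptor, had a mean of 0.04 ± 0.12 (adjusted p = 0.71). The Mag call was lost without mouse 1 or mouse 2 and on the Cy5 arrays alone.

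Markers of other immune cells moved on the same arrays. Only part of each list was measured: 8 of 18 T cell, 10 of 18 macrophage and monocyte, and 4 of 11 dendritic cell markers. For neutrophils it was 7 of 11, and for lung epithelium 6 of 10. Of 8 T cell markers 5 rose and 0 fell (median 0.34, range 0.17 to 0.70), and their medians were 0.62, 0.19, 0.41 and 0.34 in mice 1 to 4. Of 10 macrophage and monocyte markers 6 rose and 1 fell (median 0.90, range -2.54 to 4.43), with medians of 1.14, 0.65, 0.88 and 0.73. In both lists, as for Blnk, Cd22 and Ltb, mouse 1 was the highest, and mouse 2 was the lowest in both lists, as for Cd22 and Ltb. Of 4 dendritic cell markers 1 rose and 1 fell, and of 7 neutrophil markers 3 rose and 2 fell. Of 6 lung epithelium markers 1 rose and 2 fell (median -0.07). Their part in the values of the 5 genes was not tested, and summed levels cannot be had from ratios.

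**Figure D4:**
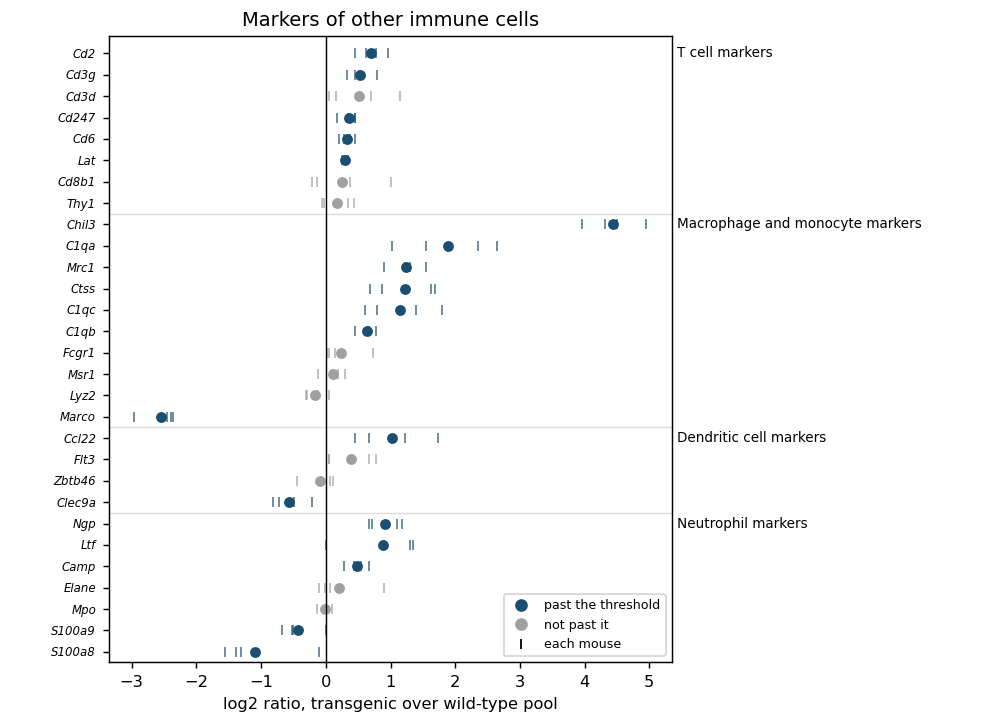
Log2 ratio (horizontal axis, transgenic over wild-type pool) of measured markers of 4 other immune cell types, with ticks for mice 1 to 4 and a dot for their mean, blue where past the threshold. The T cell markers lie between 0.17 and 0.70, while the macrophage markers spread between -2.54 and 4.43.

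Ccl22, a chemokine gene of dendritic cells and macrophages that was chosen after its values were seen, had its mice in the same order as Irf4. It had 0.45, 0.67, 1.74 and 1.23 in mice 1 to 4, against 0.14, 0.67, 1.18 and 0.94 for Irf4. The other measured dendritic cell markers did not share that order. Clec9a fell by 0.56, while Flt3 (0.39) and Zbtb46 (-0.08) did not pass. With 4 mice no correlation is given, and a shared order can arise by chance. Which cells held the Irf4 RNA was not tested.

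The genes most like each of the 5 were taken over all 8644 other genes measured on 8 arrays, by the root mean square difference in log2 ratio over the arrays. The nearest to Blnk were Selplg (0.15), the gene of the selectin ligand PSGL-1, Laptm5 (0.16), a lysosomal membrane gene of blood cells, and Cstb (0.19), which encodes a protease inhibitor. For Cd22 they were Hcls1 (0.17), which encodes a substrate of the kinase Lyn in blood cells, then the survivin gene Birc5 (0.21) and Blnk itself (0.23). For Ltb they were Ier5l (0.15), Kcnab2 (0.16), a potassium channel subunit gene, and Arhgdib (0.17), a gene of blood cells. Irf4 had no near neighbour: its closest were 4930524B15Rik (0.43), Ppard (0.44) and Jaml (0.45), and the name of 4930524B15Rik is uncertain because it lies among rows where the naming of probes agreed poorly. For Blk they were Lrrc20 (0.14), Mcts2 (0.15) and Unc5a (0.17), at means of -0.27, -0.21 and -0.31, where many genes lie. Of the 5, Blnk and Cd22 were the nearest pair at 0.23, and Blk lay 1.10 to 1.36 from the others. These distances include the gaps between the means on which the 5 genes were picked. The place of Blk apart from the others was thus set largely by the choice, and nothing is read from it.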

How the data were processed

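The deposited values, made by the authors, are log2 ratios, 1 per probe and array; the sources used here give no image software, background correction or dye normalization. The 498 placeholder values beyond 10 in size were set to missing, and 706 more were missing as deposited. A probe needed a value in each of 4 mice, which left 20621 of 20794. No centring was applied.

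Names come from the platform annotation, with symbols brought up to date by Entrez number from RefSeq (GRCm38.p6). Annotation number plus 11 gave the row: over 6001 offsets, probes of the same gene correlated best there (Spearman 0.230 over 4735 pairs, at most 0.062 at any other). In the blocks of 1000 rows that hold the 5 genes, 11 was the best of nearby offsets, at 0.149 (Blk) to 0.304 (Ltb). The name of Blk thus rests on the weakest agreement of the 5. A probe of the dendritic cell marker Zbtb46 and a probe of the signalling gene Bcl10 lie in a block at 0.065. There 11 was not the best offset, and neither gene passed the threshold. Annotation numbers above 20237, among them that of another Ltb probe, showed none (-0.007 over 231 pairs) and were left unnamed; 12296 probes have 1 name, 0 have several and 8498 have none.

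The 2 arrays of a mouse were averaged (n = 4 mice, labelled by mouse number; nothing further is said of litters) and tested two-sided against 0 with limma (version 3.58.1, run in R 4.3.3). The fit had 3 residual degrees of freedom and 4.49 prior ones, and the threshold was a Benjamini-Hochberg adjusted p of 0.05. The pool is 1 control sample, so its own spread is left out. Gene values average the probes of a gene. Errors are SD over mice. Mice were compared with a limma F test and dyes with limma on within-mouse differences. Each test was also run on simulated data. For the dye and mouse tests the simulated array noise was below that of the real arrays. Those runs therefore do not show how often the tests find a difference on these arrays. Summaries used pandas 2.3.3 and figures matplotlib 3.10.9.

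The 5 genes, the lists and the motifs were chosen with earlier results of these data known. The text names the 5 genes, list genes past the threshold (up to 6 each way per list), Cd79a, Cd79b, Ms4a1, Pax5, Ighm and Igkc where measured, and the 3 genes most like each of the 5. Plcg2, Fgr, Src, Irf8, Xbp1, Sdc1, Tnfrsf13c, Ltbr, Ccl21a, Siglec1, Siae and Ccl22 fall outside this rule: they were picked with their values in view. So do Fcrla, Cd40, Cd24a, Cd37, Cd86 and Fcgr2b, which are all the receptor and surface genes that did not pass. Clec9a, Flt3 and Zbtb46 are outside it too, and with Ccl22 they are all the measured dendritic cell markers. Bcl10 is named only because a row of it was named with poor agreement, which also holds for a row of Zbtb46.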

Additional observations from a re-analysis of the deposited data

Results flagged for a closer look

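Among 32 genes checked for a mouse far from the other 3, only Vav1 met the limit, with 0.99 in mouse 1 and 0.48 in the nearest mouse. Chance alone gives such a gap in about 1 of 20 genes.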

How the results depend on the processing

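The means of the 5 genes kept their sign and moved by less than the SD between mice in all 14 alternatives. They ranged from 0.93 to 1.07 for Blnk, 0.81 to 1.18 for Cd22, 0.58 to 0.93 for Irf4, 0.61 to 0.85 for Ltb and -0.35 to -0.19 for Blk. As the genes were picked on these arrays, this is no independent support. On the Cy3 arrays alone 3190 probes changed, 1208 of them higher, and 8 list genes rose. Leaving out 1 mouse gave 2547 to 4064 changed probes, 1011 to 1890 higher probes, 1546 to 2104 changed genes, and 10 to 18 list genes that rose. Probes that differed between mice numbered 78 with placeholders kept, 552 with array scales made equal, 84 without the dye covariate, and 0 to 495 without 1 mouse (limma; 0 without mouse 1 or 3, where 2965 and 2177 had an unadjusted p under 0.05). Probes with a dye effect numbered 41 with scales made equal and 0 to 1 without 1 mouse (0 without mouse 1, where 4771 had an unadjusted p under 0.05). The cause was not tested. The Cy5 minus Cy3 differences changed sign for Blnk (0.16 with scales made equal, -0.095 to 0.022 without 1 mouse), Irf4 (-0.183 to 0.404) and Blk (-0.423 to 0.068), none past the threshold. The alternative without the mouse 4 array in Cy3 was added after the data were seen. No paired analysis was possible because the transgenic mice have no wild-type partners, only 1 pool; the fits within mice concern dye and array. Signal over background is unknown.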
